A study of Drosophila melanogaster with 150 samples.

Results

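The 150 arrays of the series fall into distinct levels of Map205, and the 21 arrays on which it was low are described here against the other 129. An array was called Map205-low where the gene's only probe set was below 6.1 on the deposited log2 scale, and Map205-high otherwise. These are classes of arrays cut from a measured value, not treatments, so the level of Map205 itself is given as a description with no test. RNA came from whole adult males of Drosophila melanogaster of 75 recombinant inbred lines, called roo lines, with an array labelled lead and an array labelled control for every line. Food labelled lead held 250 uM lead acetate (PbAc), while food labelled control held 250 uM sodium acetate (NaAc), and both diets were otherwise standard cornmeal, agar, sugar and yeast. In each vial 20 males and 20 females laid for 3 days on 10 ml of food at 25 degrees C, and an array stands for a pool of 65 of their sons, 5 to 10 days old. In such RNA, fewer cells of a type and less RNA per cell cannot be told apart. The values are signals of probe sets, and whether a difference in signal is a difference in RNA amount was not tested.

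Map205 encodes a microtubule-associated protein of the fly that binds microtubules and the mitotic kinase Polo. Recombinant inbred lines are made by crossing founders and inbreeding their descendants, so a line carries a mosaic of founder chromosome segments in which neighbouring genes tend to be inherited together. In the gene table used for names and order, Map205 is the last of 4226 genes of chromosome arm 3R, with 0 genes beyond it. Distances below are numbers of genes along that order.

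Map205 was between 2.43 and 5.34 on the 21 low arrays, with a median of 2.97, and between 7.30 and 10.29 on the 129 high arrays, with a median of 9.31. No array lay in the gap of 1.96 that separates them, and the threshold fell inside it. The arrays nearest the threshold were labelled line 212 control at 5.34, on the low side, and line 87 control at 7.30, on the high side. Below 3.5 lay 16 of the low arrays, and the other 5 were labelled line 38 lead at 3.98, line 12 control at 4.12, line 67 control at 4.17, line 86 control at 4.46 and line 212 control. The mean was 3.21 ± 0.77 (SD, n = 21) on low arrays and 9.27 ± 0.40 (SD, n = 129) on high arrays. The SD over all arrays was 2.16, the 14th highest of 18769 probe sets, against a median of 0.219 for a probe set.

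**Figure D1:**
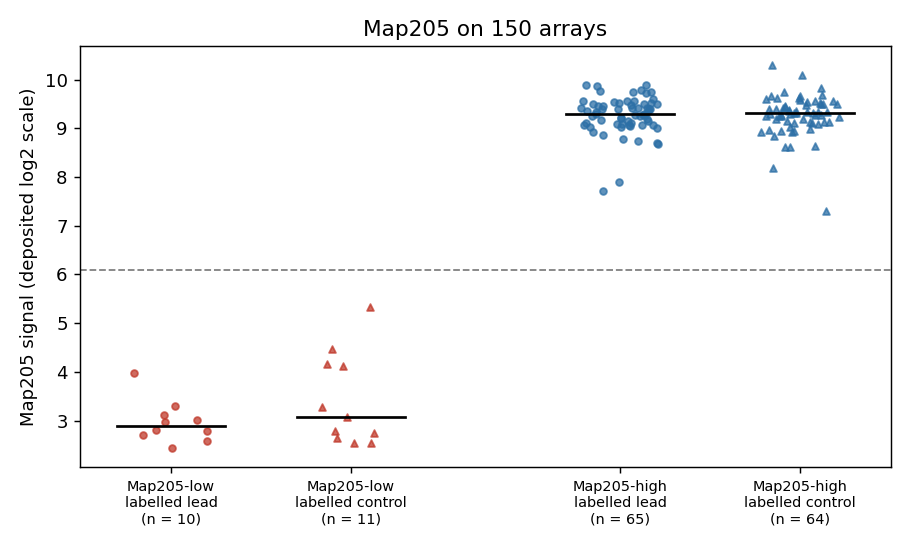
Map205 signal on the deposited log2 scale for each of the 150 arrays, by Map205 class and labelled diet. Points are arrays, black lines are medians and the dashed line is the threshold of 6.1. Low arrays lie at 5.34 or below and high arrays at 7.30 or above under both labels.

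The class did not follow the labels. Of the low arrays 10 were labelled lead and 11 control, against 65 and 64 of the high arrays, with an odds ratio of 0.896 (95% interval 0.317 to 2.51) and p = 1 in Fisher's exact test, 2-sided. Lines numbered above 200 held 3 low arrays and 33 high arrays, and lines numbered 1 to 100 held 18 and 96 (Fisher's exact p = 0.408). Map205 was low on at least an array in 20 of the 75 lines, but on both arrays only in line 19. Whether the labels and the values of these arrays belong together was not tested. What a labelled line or diet stands for in the fits below is therefore in doubt. Map205 was low on the lead array alone in 9 lines, on the control array alone in 10, and on neither in 55. Fisher's exact test of the class of the lead array against that of the control array of the same labelled line gave p = 1 over 75 lines, with an odds ratio of 0.615 (95% interval 0.0127 to 5.40).

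MtnB, a metallothionein gene with levels on either side of 10 over the arrays, entered the limma fits below as a covariate. It lay above 10 on 10 of the 21 low arrays (47.6%) and on 66 of the 129 high arrays (51.2%), which gave p = 0.817 in Fisher's exact test. Signs of array and RNA quality did not separate the classes. The array median averaged 5.41 in both classes, the median correlation with the other arrays 0.981 in both, and the difference between 3' and 5' control probe sets of Act5C averaged 1.46 ± 0.376 (SD) on low arrays and 1.54 ± 0.508 on high arrays. Permutation p-values over these and the matching Gapdh measure, 4 in all, were between 0.490 and 0.714, with an adjusted p of 0.714 for each. Male accessory gland genes had a median level of 11.5 in both classes and testis genes of 8.70 and 8.60 on low and high arrays.

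Female RNA markers were high on some arrays, all of which were labelled male. The mean signal of 17 yolk, eggshell and egg genes of an array was between 3.45 and 4.43 with a median of 3.63 on low arrays, and between 3.31 and 9.27 with a median of 3.67 on high arrays. The gene osk, transcribed in the ovary, was above 5 on 2 of 21 low arrays (9.52%) and on 38 of 129 high arrays (29.5%), and reached 6.76 on low arrays and 10.85 on high arrays. Its mean was 3.15 ± 1.03 (SD) on low arrays and 4.18 ± 2.12 on high arrays, a difference of -1.06 with an unadjusted p of 0.0241 and an adjusted p of 0.832 in limma. Without the 40 arrays of high osk, which left 19 low and 91 high arrays, that difference was -0.06. Those arrays were picked by osk itself, so its smaller difference follows from the choice and is no result. The setting without these arrays, chosen after seeing the data, is given below beside the results it changes.

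Differences between the classes lay in named genes at the end of 3R. With the MtnB side in the model, limma called 24 of 18767 probe sets (0.128%) at a Benjamini-Hochberg adjusted p under 0.05, 16 higher (0.0853%) and 8 lower (0.0426%) on Map205-low arrays. Of the 24, 21 belong to genes of 3R, where they made up 0.617% of 3405 probe sets, 14 higher and 7 lower. The others were CG11131 of 3L, CG31789 of 2L and a probe set with no gene symbol, and 0 were called on 2R, X, chromosome 4 or Y. At an unadjusted p under 0.05 these arms held 135 of 2733, 109 of 2188, 6 of 82 and 0 of 6 probe sets. Other settings did call genes there. With Map205 as a continuous predictor they were CG11044 of 2R and l(1)G0196 of X. Without the arrays with Map205 between 3.5 and 8.5 they were the same genes, CG3603 of X and Syt7 of chromosome 4. All 21 calls of 3R lay between 10 and 466 genes from Map205. With the labelled line as a fixed term, which rests on the 19 lines that hold both classes, the count was 9, and all 9 were on 3R and among the 24. Those 9 were Ir100a, pHCl-2, CG12054, CG15553, Jon99Fi, sima, neo, CG7829 and Pcd, and the adjusted p of the other calls ran from 0.0508 to 0.979 in that fit. Without the 40 arrays of high osk the count was 28, with 22 of the 24 among them and 25 on 3R. Among arrays labelled lead alone it was 11, with 10 on 3R, and among those labelled control alone it was 1, Ir100a.

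Calls were spread over the last 500 genes of the arm. Within 50 genes of Map205, 3 of 40 probe sets passed (7.50%). Between 51 and 100 genes 4 of 44 passed (9.09%), and between 101 and 200 genes 4 of 78 (5.13%). Farther along the arm the count was 2 of 68 at 201 to 300 genes, 5 of 90 at 301 to 400 and 3 of 76 at 401 to 500. Beyond 500 genes limma and the rank-sum test each called 0 of 3009 probe sets of 3R, while limma with the Map205 value as a continuous predictor called 2. It called 1 there without the arrays of intermediate Map205, without the arrays of high osk, and without line 78 lead, line 9 lead, line 86 control or line 67 control, each left out alone. At an unadjusted p under 0.05 the share was 25.0% within 50 genes, 35.9% between 101 and 200 genes, 15.8% between 401 and 500 genes, 5.60% between 501 and 1000 genes and 4.31% farther away, against 5.18% over all probe sets. The share of probe sets that passed either threshold was therefore above that of the whole table in every bin up to 500 genes.

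**Figure D2:**
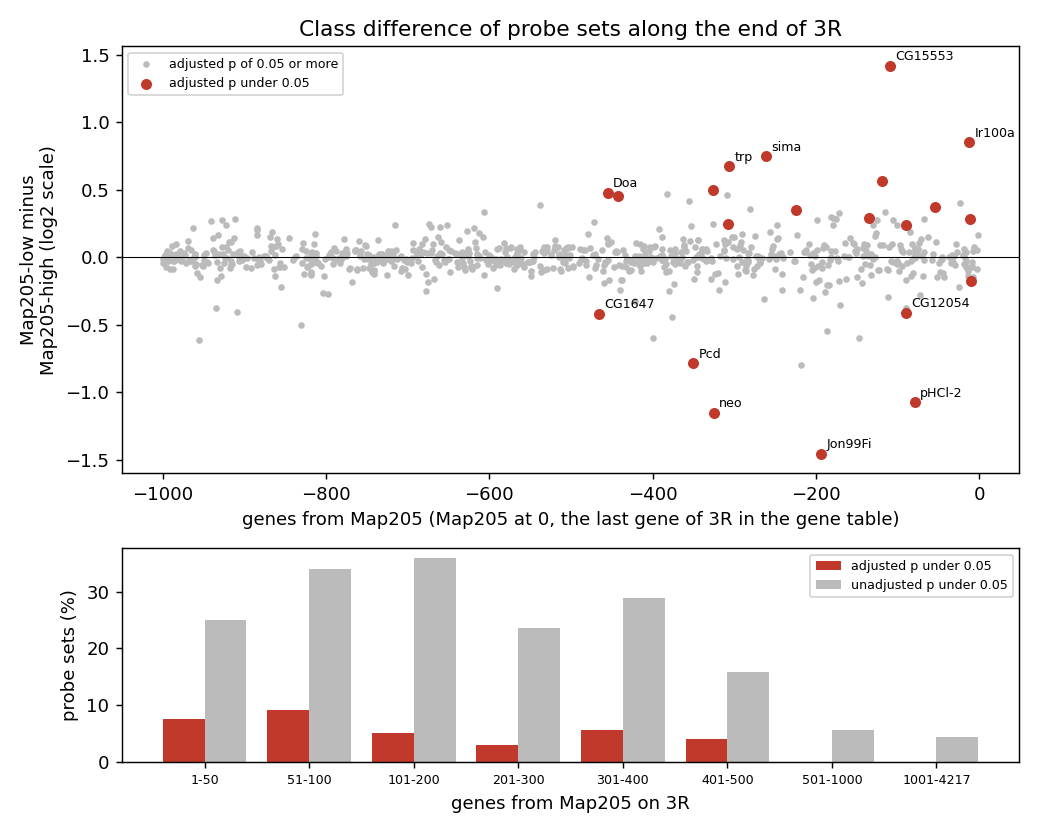
Upper panel: the difference Map205-low minus Map205-high (log2 scale) of each probe set within 1000 genes of Map205 on 3R, against its distance in genes, with probe sets of adjusted p under 0.05 in red. Lower panel: the percentage of probe sets that passed the adjusted (red) and unadjusted (grey) thresholds by distance, where the red bars stop after 500 genes.

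Differences were small in the genes next to Map205. Of the 10 genes nearest to it, 8 were measured, by 10 probe sets, and their differences ran from -0.18 to 0.17. Rift, 10 genes away, was called, at -0.18 (95% interval -0.25 to -0.11, adjusted p = 0.00252 in limma, 0.558 with the labelled line as a fixed term). It was between 6.86 and 7.35 with a median of 7.09 on low arrays, and between 6.86 and 7.72 with a median of 7.26 on high arrays, so the classes overlapped widely. The adjacent gene mod, which encodes the chromatin protein modulo, had a difference of 0.17 (0.02 to 0.31) and an adjusted p of 0.798. Other differences were -0.08 for krz, the fly's nonvisual arrestin, 0.04 for the splicing regulator heph, 0.06 for Pos and 0.08 for CG2003. The 3 probe sets of FeCH, the ferrochelatase that completes heme, gave differences from -0.07 to -0.03. None of these passed over all arrays. Without the arrays of high osk, mod differed by 0.25 and did pass (adjusted p = 0.0371 in limma).

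Ir100a, a member of the ionotropic receptor family of chemosensory channels, 12 genes from Map205, had the smallest p of all probe sets tested. Its signal was between 3.99 and 5.46 with a median of 4.53 on low arrays, against 3.00 to 5.17 with a median of 3.53 on high arrays. All 21 low arrays lay above the median of the high arrays, and 24 of the 129 high arrays lay inside the range of the low ones. The difference was 0.85 ± 0.10 (SE), and its 95% interval 0.65 to 1.05, with 3.04e-10 as the adjusted p of limma. CG1971, 11 genes away, was higher by 0.29 ± 0.061 (adjusted p = 0.00753 in limma, 0.353 with the labelled line as a fixed term), with 17 of 21 low arrays above the high median.

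Jon99Fi, a serine protease gene of the Jonah family expressed in the gut, and CG15553 had the largest differences among the called probe sets, in opposite directions. CG15553 had a signal between 2.92 and 6.32 with a median of 5.15 on low arrays, against 2.55 to 6.45 with a median of 3.03 on high arrays. It was higher on low arrays by 1.42 ± 0.25 (SE, adjusted p = 1.33e-04). Jon99Fi was between 5.84 and 11.28 with a median of 9.31 on low arrays, against 6.98 to 12.23 with a median of 10.99 on high arrays. It fell by 1.45 on the log2 scale (interval -1.96 to -0.95, adjusted p = 1.33e-04), and 19 of 21 low arrays were below the high median. For both genes the classes overlapped, with 82 high arrays inside the range of the low ones for CG15553 and 83 for Jon99Fi.

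Ion channels and a sensory gene were among the other genes of 3R with large differences. pHCl-2, a ligand-gated chloride channel subunit, 79 genes from Map205, had a signal between 3.5 and 6.06 with a median of 4.97 on low arrays, against 3.32 to 7.62 with a median of 6.1 on high arrays. It differed by -1.07 ± 0.17 (SE, adjusted p = 3.40e-05), and all 21 low arrays lay below the high median. The gene trp, which encodes the light-activated channel of photoreceptors, was between 8.38 and 10.09 with a median of 9.51 on low arrays, against 7.16 to 9.95 with a median of 8.74 on high arrays. It was higher by 0.68 ± 0.13 (adjusted p = 4.50e-04, 0.0599 with the labelled line as a fixed term), with 19 of 21 low arrays above the high median.

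Regulatory and metabolic genes followed. The gene sima, the fly's HIF-1 alpha factor of the hypoxia response, 261 genes away, was between 6.03 and 7.78 with a median of 7.42 on low arrays, against 5.53 to 7.83 with a median of 6.32 on high arrays. It was higher by 0.75 ± 0.13 (SE, adjusted p = 8.80e-05). Pcd, which encodes pterin-4a-carbinolamine dehydratase and lies 350 genes away, was between 6.68 and 8.07 with a median of 7.07 on low arrays, against 6.61 to 8.68 with a median of 8.12 on high arrays. All 21 low arrays were below the high median, and the difference was -0.78 ± 0.13 (adjusted p = 3.40e-05). The gene neo, a zona pellucida domain gene of the embryonic epidermis, 325 genes away, was between 3.20 and 5.32 with a median of 3.64 on low arrays, against 3.12 to 6.21 with a median of 5.26 on high arrays. Its difference was -1.15 ± 0.20 (adjusted p = 1.03e-04).

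The remaining calls of 3R were smaller. CG33773, CG7829, CG1635, CG9737, CG15547, CG31036 and CG15563 were higher by 0.24 to 0.56, with an adjusted p between 2.71e-04 and 0.0456 in limma. CG12054 was lower by a difference of -0.41 (adjusted p = 7.14e-06), and its other probe sets gave -0.38 (adjusted p = 0.0760) and -0.17 (adjusted p = 0.240). Farthest along the arm were beta4GalNAcTB, a glycosyltransferase gene, at 0.45, Doa, the LAMMER kinase gene Darkener of apricot, at 0.48, and CG1647 at -0.42, all between 442 and 466 genes from Map205. Their adjusted p was 0.0440, 0.0174 and 0.0456 in limma, and 0.0947, 0.214 and 0.206 with the labelled line as a fixed term. The other probe sets of Doa gave 0.10 and -0.02 and did not pass, and the second probe set of CG7829 gave 0.25 ± 0.12 (SE) and did not pass.

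**Figure D3:**
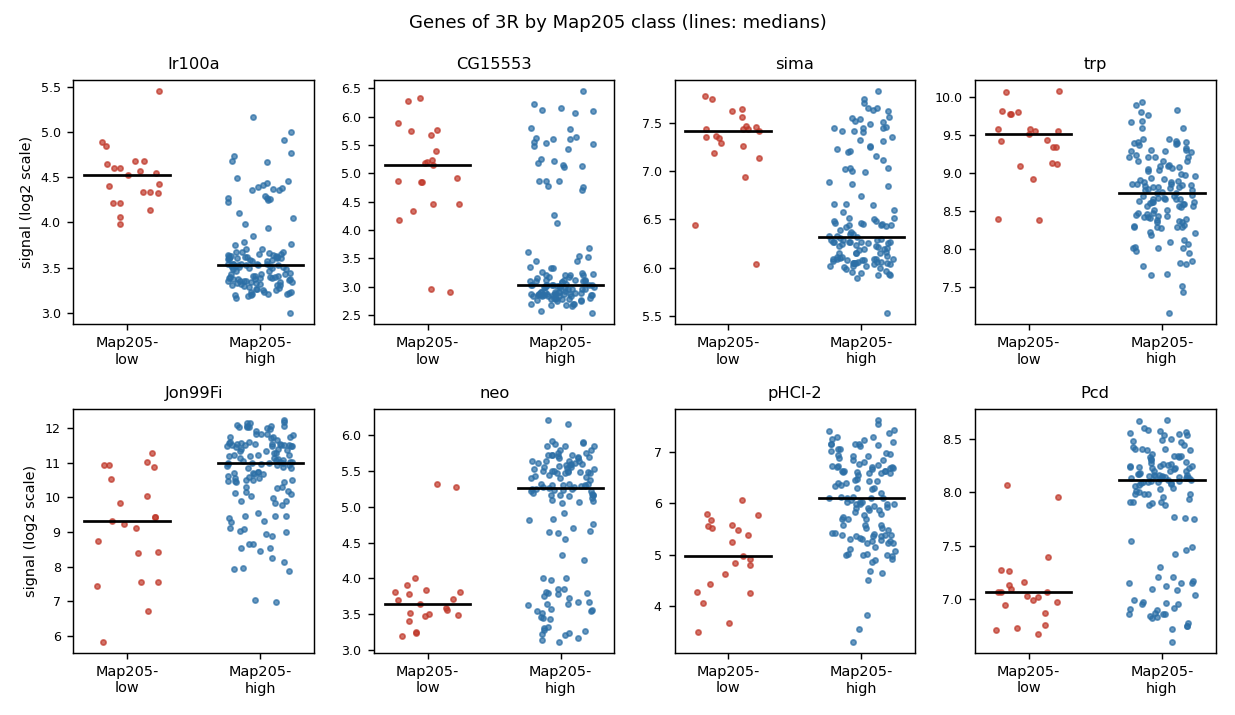
Signal (log2 scale) of 8 called genes of 3R on the 21 Map205-low arrays (left, red) and the 129 Map205-high arrays (right, blue). Points are arrays and black lines are medians. In CG15553, sima, neo and Pcd the arrays lie above or below a gap in the sorted values, and 2 low arrays sit with most of the high arrays.

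The widest gap in the sorted values of several of these genes is described here without a test. Every probe set has a widest gap, and the widths were not compared with those of uncalled probe sets. Whether any of these genes has distinct levels was not tested. In the middle 80% of the sorted values, the widest gap of CG15553 ran from 3.68 to 4.13, with 19 of 21 low arrays above it and 2 below, and 31 of 129 high arrays above it and 98 below. For Pcd the gap ran from 7.54 to 7.75, with 19 low arrays below it and 2 above, and 35 high arrays below it and 94 above. For neo it ran from 4.01 to 4.26, with 19 low arrays below it and 2 above, and 34 high arrays below it and 95 above. For sima it was narrower, from 6.74 to 6.85, with 19 low arrays above it and 2 below, and 38 high arrays above it and 91 below. The 2 exceptions were the same arrays in all 4 genes, those labelled line 80 lead and line 45 control. These 4 genes, which span positions from 109 to 350 genes away, were chosen after their values were seen, for this split of 19 and 2. Genes with gaps of like width divided the low arrays less cleanly: for Jon99Fi, with a gap from 9.56 to 9.77, 13 low arrays lay below and 8 above, and for Doa, with a gap from 4.05 to 4.16, 16 lay above and 5 below. Both arrays named were among the exceptions there too.

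Taken over the 4 genes, 19 low arrays were on the side of the class difference in every gene, and the other 2 in none. The genes were chosen for this split, so that count is no result. Among the high arrays 23 were on that side in all 4 genes, 82 in none and 24 in some. In these 4 genes, the side on which nearly all low arrays lay was also occupied by 23 arrays that were high in Map205. Nearer to Map205, the gap of Ir100a ran from 3.85 to 3.94. All 21 low arrays were above it, line 80 lead and line 45 control included, with 26 high arrays above it and 103 below. Other near genes were mixed for these arrays. At CG1635, 54 genes away, both were among the 20 low arrays above its gap. At CG1971, 11 genes away, line 45 control was among the 12 low arrays below its gap, and line 80 lead among the 9 above. At pHCl-2, 79 genes away, 17 low arrays lay below its gap, and both arrays were among the 4 above. The gaps of CG1635, CG1971 and pHCl-2 were only 0.029, 0.054 and 0.098 wide. The SD over all arrays was 0.316, 0.281 and 0.914 in that order, so an array's side there rests on a narrow cut.

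The low arrays differed among themselves in how far along the arm they followed the class. An array was counted for a probe set of the 21 called on 3R where it lay beyond the median of the high arrays in the direction of the class difference, as a description of the probe sets the fit had chosen. Low arrays were on that side in 11 to 21 of the 21 probe sets, with a median of 19, against 2 to 21 with a median of 9 for high arrays. All 21 were met by 6 low arrays and 2 high arrays. The array labelled line 80 lead met 8 of 11 within 200 genes of Map205 and 3 of 10 farther away. Similarly, line 45 control met 9 of 11 and 3 of 10. The array labelled line 9 lead went the other way, with 6 of 11 within 200 genes and 10 of 10 farther away. In the array labelled line 221 control the 3 probe sets not met were the farthest ones, beta4GalNAcTB, Doa and CG1647. Both arrays of line 19, the only line with a pair of low arrays, met 21 on control and 19 on lead.

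**Figure D4:**
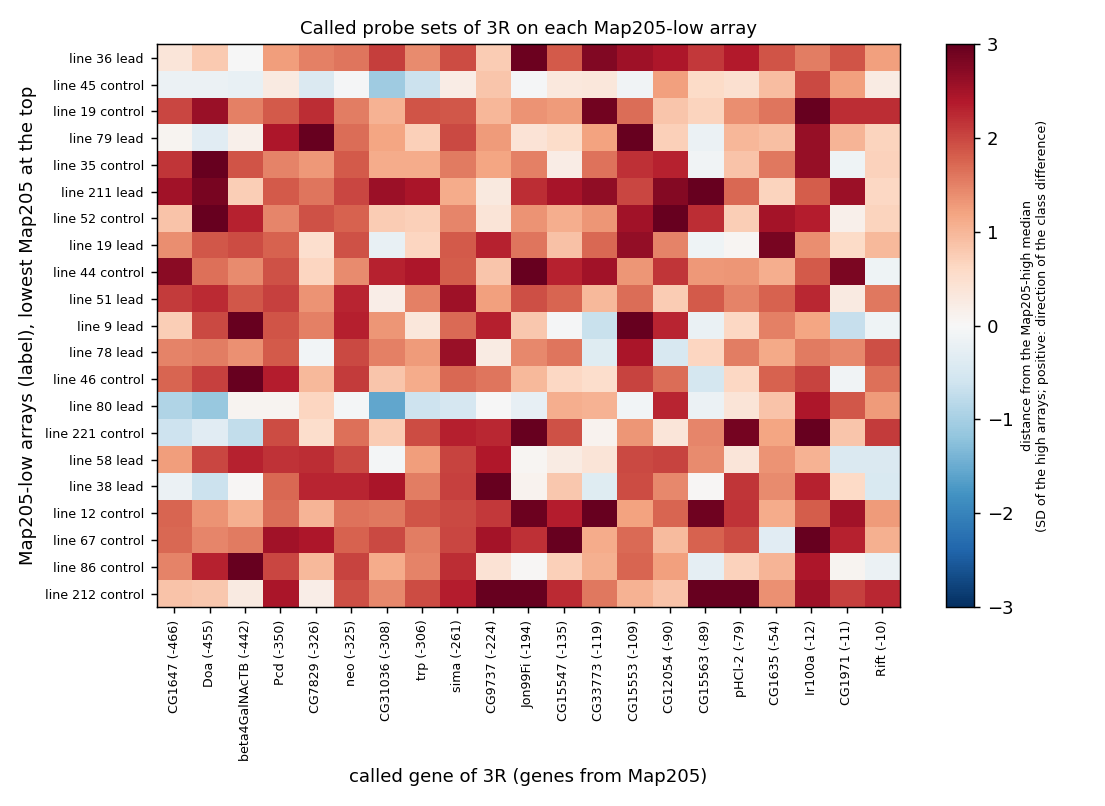
Distance of each Map205-low array (rows, lowest Map205 at the top) from the Map205-high median in units of the SD of the high arrays, for the 21 called probe sets of 3R in gene order (columns, genes from Map205 in brackets). Red marks the direction of the class difference. The arrays labelled line 45 control and line 80 lead are pale or blue on the left, far from Map205, and red at Ir100a.

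Among the Map205-high arrays alone, the called probe sets of 3R varied together. The class fit, which included these arrays, chose the probe sets and their directions. Pairs of other probe sets were not compared. With each turned to the direction of its class difference, 204 of 210 pairs had a positive Pearson r over the 129 arrays, with a median of 0.373. The median r was 0.423 for the 67 pairs under 100 genes apart and 0.245 for the 39 pairs over 300 genes apart. The highest, 0.822, joined Doa and CG1647, 11 genes apart. These values describe arrays that share probe sets chosen by the class comparison and carry no test. Among probe sets with 1 symbol, the 6 whose values were most like those of Map205 over the 150 arrays were Ir100a (r = -0.58), CG12054 (0.54), CG1635 (-0.47), CG15553 (-0.47), neo (0.47) and Pcd (0.47), all of 3R. The classes were cut from the same Map205 values, so these r restate the class difference in part and carry no test.

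CG11131 of 3L, a call that held when each low array was left out in turn, had a signal between 3.67 and 5.05 with a median of 4.12 on low arrays, against 3.45 to 6.39 with a median of 4.96 on high arrays, a difference of -0.70 ± 0.15 (SE, adjusted p = 0.0122 in limma, 0.221 with the labelled line as a fixed term). CG31789 of 2L, named because it is the only other call with a symbol outside 3R, was higher by 0.21 ± 0.048 (adjusted p = 0.0177 in limma, 0.0596 without the arrays of high osk). Its median was 2.85 on low arrays and 2.75 on high arrays, and line 19 lead, the highest low array at 4.50, lay 0.66 above the next. Without that array the difference was 0.13 (adjusted p = 0.197), without line 46 control 0.16 (0.185) and without line 9 lead 0.19 (0.0794). The probe set with no symbol was higher by 0.17 ± 0.037 (adjusted p = 0.0139), and its adjusted p was 0.0659 without line 78 lead and 0.110 without the arrays of high osk.

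Genes that work with microtubules and in mitosis did not move as a group. Of 27 measured genes of microtubule-associated proteins and mitotic motors 0 were called, and at an unadjusted p under 0.05 there were 0 higher and 1 lower. That gene was ncd, a kinesin-14 motor gene that lies 329 genes from Map205, at -0.16 ± 0.069 (SE, adjusted p = 0.808). The median difference was -0.0035, against 0.00063 over all 11980 genes with a symbol, of which 5.58% had an unadjusted p under 0.05. Of 15 mitotic kinase regulators 0 were called and 1, the cyclin gene CycB, had an unadjusted p under 0.05, at -0.64 ± 0.28 (adjusted p = 0.795), with a median of -0.020 for the list. CycB, mtrm, an inhibitor of Polo in the oocyte, and alphaTub67C, the maternal alpha-tubulin, had -0.64, -0.48 and -0.41 over all arrays, and -0.08, 0.03 and 0.03 without those of high osk. The arrays left out were picked by an ovary transcript, so smaller differences in genes that vary with it can follow from the choice. The cause was not tested. Of 14 tubulins and gamma-tubulin ring genes 0 were called and 1 was lower at an unadjusted p under 0.05, with a median of -0.038.

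Of the other lists, gut digestive enzymes were the only one with a call. Jon99Fi was called among 30 measured members, whose median difference was -0.076, and 1 more was lower at an unadjusted p under 0.05. In the lists and over all genes with a symbol, each gene was read by its probe set of highest mean signal, which leaves out the called probe sets of Doa and CG7829. Over all 11980 genes so read 21 were called, and 5.58% had an unadjusted p under 0.05. Limma called 0 of the 15 metal handling genes, 24 male accessory gland genes, 18 muscle genes, 11 antimicrobial and recognition genes, 21 neuronal genes, 17 female yolk and eggshell genes, 34 testis genes and 9 ribosomal protein genes. Their numbers at an unadjusted p under 0.05, in that order, were 2, 2, 1, 1, 0, 1, 0 and 0. Their median differences were 0.030, 0.023, 0.029, 0.12, -0.021, -0.12, 0.065 and -0.0055. In the female list 1 of 17 differences was above 0, against 8 of 17 without the arrays of high osk. That list includes osk, by which those arrays were picked, so this change can follow from the choice. The smallest p-values among members that did not pass were those of a pair of genes on 3R. Ctr1C, a copper transporter gene 125 genes away, had 0.28 ± 0.077 (SE, adjusted p = 0.160). Dup99B, a peptide gene of the ejaculatory duct 355 genes away, had 0.42 ± 0.13 (adjusted p = 0.299).

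The class difference was compared between the labelled diets and between the MtnB sides. Limma called 0 of 18767 probe sets for the interaction of class with labelled diet, where 889 had an unadjusted p under 0.05, and 0 for that with the MtnB side, where 268 did. The smallest adjusted p was 0.862 and 1.00. CG15553 differed by 1.95 between the classes on arrays labelled lead and by 0.91 on those labelled control, with an unadjusted interaction p of 0.0395 and an adjusted p of 0.862. Ir100a differed by 0.74 on arrays labelled lead and by 0.94 on those labelled control, and Pcd by -0.81 and -0.74. For all 21 called probe sets of 3R the difference had the same sign under both labels. They were chosen by the fit over these same arrays, which favours equal signs, so this is no separate support.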

How the data were processed

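Whole-body RNA of 150 pools of male flies was hybridised to Affymetrix arrays by the manufacturer's standard procedures, per the labels' protocols. The deposited table holds the authors' processed values for 18952 probe sets, read here as log2 signal from their range of 1.93 to 14.04 and array medians of 5.29 to 5.55. Which log base, summarisation and normalization were used is not stated in the labels or headers, and the number of arrays limits the precision. The values were used unchanged, without 183 array controls and the probe sets of Map205 and MtnB. Groups came from the titles, and classes from Map205 (threshold 6.1) and MtnB (threshold 10).

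The class difference, adjusted for MtnB side, was fitted by limma 3.58.1 (R 4.3.3) over 150 arrays, with Benjamini-Hochberg adjustment over 18767 probe sets and no filter. The script was tested on simulated data. Labels pair the arrays of a line, and the fitted correlation within labelled lines was 0.0426. P-values measure the spread between these pools. Permutation tests used 1e+05 resamples. Symbols come from the platform table (13645 probe sets with 1 symbol, 402 with several and 4720 with none), and gene order from the Release 6 plus ISO1 MT gene table, which placed 13542 of those probe sets. Since neither labels nor headers name a build for the array design, no coordinates are printed.

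The classes, the 12 gene lists (the 3 microtubule and mitosis lists, and the cell type, metal and ribosome lists named in the results) and the tests were chosen with earlier results of these data known. Named genes were those within 10 genes of Map205, up to 12 called genes per direction within and beyond 50 genes, the 6 genes most like Map205 and up to 4 called members of each list. The gene polo, also on that list, is not analysed here. Another of the genes nearest to Map205 is not reported here.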

Additional observations from a re-analysis of the deposited data

How the results depend on the processing

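The 24 calls became 23 with no MtnB side and 24 with the labelled diet as a covariate or with the line as a random replicate block, both with the same 24 probe sets, while median centring gave 24 with 23 shared and quantile normalization 24 with 22 shared. As 0 arrays lay within 0.3 of the threshold, that setting changed nothing. Array weights gave 19, lines numbered 1 to 100 alone 25 (20 shared), and leaving out the 8 arrays of lowest correlation 23. With the replicate block as a fixed term there were 9 calls (4 higher, 5 lower), 1 within 50 genes, 8 on the rest of 3R and 0 on other arms. Among brighter probe sets only, where fewer were tested, there were 12 (7 higher, 5 lower), 9 on the rest of 3R and 0 on other arms. The rank-sum test gave 15 (9 higher), with 1 within 50 genes and 1 on other arms. An adjusted p under 0.01 left 17, with 0 on other arms. Map205 as a continuous predictor gave 52 (26 higher, 26 lower), with 39 on the rest of 3R and 5 on other arms. Fewer arrays entered with the lead label alone, which gave 11 calls, 9 shared (7 higher, 4 lower; 1 within 50 genes, 9 on the rest of 3R and 1 on another arm), and with the control label alone, which gave 1 (1 higher, 0 lower; 1, 0 and 0). Leaving out arrays with Map205 between 3.5 and 8.5, chosen after seeing the data, gave 27, 16 of them among the 24, with 15 lower and 7 on other arms. Leaving out arrays with osk above 5, chosen likewise, gave 28, with 1 on other arms; apart from fewer arrays, the cause of changes was not tested.

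Leaving out each low array in turn gave 20 to 29 calls, 17 to 24 of them on 3R, and 1 to 3 on other arms, the 1 without line 19 lead or line 46 control. Calls were lost in 15 of the 21 such fits for CG31036 (highest adjusted p 0.158), in 14 for CG1647 (0.134), in 13 for beta4GalNAcTB (0.148), in 4 for Doa (0.0906 without line 35 control) and in 1 for CG15563 (0.0685 without line 211 lead). Over all alternatives, the 468 values of the called probe sets kept their sign, and 107 of them missed the threshold. The alternatives reuse arrays on which these probe sets were chosen, which favours a kept sign. Of the 177 values of named probe sets that were not called, 7 changed sign and 1, that of mod, passed the threshold. No class test against diet, MtnB side or line changed its call, and no interaction gained a call.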
